A study of Mus musculus with 24 samples.

Results

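The ErbB receptor genes Egfr, Erbb2, Erbb3 and Erbb4 and the ligand genes Tgfa, Hbegf, Nrg1 and Nrg3 were followed in sorted cells of the mouse embryonic cortex. They are 8 of the 39017 genes in the deposited count tables, found by matching each symbol to its Ensembl identifier. The list was chosen by the lower Tgfa level in knockout than in control TBR2+ cells, at 1.91 against 8.15 CPM, so that contrast is described for these genes without a test. CPM is the usual unit of reads scaled to library size, here with TMM factors over all 24 libraries. All libraries were made from E15.5 cerebral cortex, with 4 libraries for each of 6 groups. Control cells, written WT, carried Prdm16 flox/flox alleles without Cre, and knockout cells, written KO, carried Emx1Ires-Cre together with Prdm16 flox/flox. Each genotype was sorted by marker protein into PAX6+ cells, the radial glia, TBR2+ cells, the intermediate progenitors, and PAX6-TBR2- cells, which the labels call cortical neurons. Emx1-driven Cre acts in progenitors of the dorsal telencephalon and their descendants, whereas cortical interneurons come from ventral progenitors outside that lineage. The replicates are described as biological, but no embryo or litter is named, so the p-values measure the spread between these libraries only.

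ErbB proteins are receptor tyrosine kinases that pair at the cell surface after a ligand binds and signal through the Ras and MAP kinase and the PI3 kinase pathways. TGFA and HBEGF bind EGFR, HBEGF and the neuregulins bind ERBB4, NRG1 also binds ERBB3, and ERBB2 has no known ligand of its own and acts as a partner of the others. Most of these ligands are made as membrane proteins and released by proteases. In the developing cortex, neuregulin signalling is known for its part in radial glia and in the migration of interneurons, and EGFR marks progenitors late in neurogenesis.

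In GRCm38, which is mm10, Tgfa (ENSMUSG00000029999) spans 86195223 to 86275719 on the plus strand of chromosome 6. Nrg1 (ENSMUSG00000062991) spans 31814551 to 32884029 on the minus strand of chromosome 8 and Nrg3 (ENSMUSG00000041014) spans 38368952 to 39473088 on the minus strand of chromosome 14. Of the receptors, Egfr (ENSMUSG00000020122) spans 16752203 to 16918158 and Erbb2 (ENSMUSG00000062312) spans 98412470 to 98437716, both on the plus strand of chromosome 11. Erbb3 (ENSMUSG00000018166) spans 128567523 to 128589652 on the minus strand of chromosome 10, and Erbb4 (ENSMUSG00000062209) spans 68032186 to 69108059 on the minus strand of chromosome 1. Emx1, which hosts the Cre allele, lies 0.991 Mb from Tgfa.

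The 250 bases before the RefSeq transcription start are shown for Tgfa, the ligand with the genotype difference that led to this list, for its receptor gene Egfr, and for Erbb4, the receptor gene with the widest range between populations. They were taken from RefSeq promoters of GRCm38.p6, run 5′ to 3′ on the strand of the gene, and lie at chr6:86194972-86195221 for Tgfa (plus strand), chr11:16751953-16752202 for Egfr (plus strand) and chr1:69108060-69108309 for Erbb4 (minus strand). Capitals mark GC boxes, the letters GGGCGG on either strand.
Tgfa: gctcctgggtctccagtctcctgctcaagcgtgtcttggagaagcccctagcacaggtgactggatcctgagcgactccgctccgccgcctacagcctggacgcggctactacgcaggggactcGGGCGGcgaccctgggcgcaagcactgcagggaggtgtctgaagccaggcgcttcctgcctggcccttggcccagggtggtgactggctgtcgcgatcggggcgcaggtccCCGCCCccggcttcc
Egfr: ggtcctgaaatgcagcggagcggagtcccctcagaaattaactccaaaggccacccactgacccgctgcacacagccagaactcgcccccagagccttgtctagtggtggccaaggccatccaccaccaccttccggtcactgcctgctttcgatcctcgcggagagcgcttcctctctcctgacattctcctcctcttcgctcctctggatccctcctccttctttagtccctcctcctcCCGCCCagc
Erbb4: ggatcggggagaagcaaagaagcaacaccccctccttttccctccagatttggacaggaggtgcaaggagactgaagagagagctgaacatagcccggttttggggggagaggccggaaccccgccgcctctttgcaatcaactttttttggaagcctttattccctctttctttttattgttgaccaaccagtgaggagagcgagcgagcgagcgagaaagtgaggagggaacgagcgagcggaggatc
The Tgfa window held 2 GC boxes, 19 CpG and 69.2% G and C. The Egfr window held 1 GC box, 11 CpG and 60.8% G and C, and the Erbb4 window held 0 GC boxes, 12 CpG and 54% G and C. Among 32851 RefSeq promoters of the same length, 32.7% held a GC box, and the medians were 6 CpG and 52.4% G and C. All 3 windows were thus above the median of promoters in CpG and in G and C, and a match of letters is a description of the window only.

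Library totals ran from 7.62 to 12.6 M counts in PAX6+, from 6.4 to 8.22 M in TBR2+ and from 4.95 to 30.03 M in PAX6-TBR2- cells, where WT replicate 4 was the deepest. The sorted cells carried the markers of their labels: 8 radial glia markers summed to 2839 to 3314 CPM in WT PAX6+ and at most 629 CPM in the other WT populations, and 6 intermediate progenitor markers to 2093 to 2518 CPM in WT TBR2+ and at most 509 CPM elsewhere in WT. The 8 neuron markers summed to 6659 to 8169 CPM in WT PAX6-TBR2- cells but also to 5443 to 6581 CPM in WT TBR2+ cells. Prdm16, the targeted gene, ranged from 209 to 288 CPM in WT PAX6+ libraries and from 160 to 225 CPM in the KO ones (log2 fold change -0.43, SE 0.12, edgeR adjusted p = 0.058), and counts over the whole gene do not resolve the exons that were removed. In TBR2+ cells Prdm16 ranged from 45.99 to 79.4 CPM without and 42.3 to 59.8 CPM with Cre, and in PAX6-TBR2- cells at 13.7 to 33.5 and 11.3 to 29.2 CPM, so its ranges overlapped in every population. Library names carry 1 prefix per population, so handling and population cannot be told apart.

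In WT cells the ligand and receptor genes divided by population, which was asked by comparing the 3 WT groups in pairs. Erbb2 was high in radial glia, Erbb4 and Nrg3 in PAX6-TBR2- cells, and Nrg1 in both progenitor populations. A gene was called at a Benjamini-Hochberg adjusted p under 0.05 from edgeR's quasi-likelihood test over all genes tested, and Tgfa was left without a test wherever TBR2+ cells entered. From PAX6+ to TBR2+ cells, 5 of 6 tested genes fell and 0 rose, beside 63.2% of all genes called in either direction. From TBR2+ to PAX6-TBR2- cells, 3 of 5 rose and 1 fell, beside 49% of all genes. Between PAX6+ and PAX6-TBR2- cells, 6 of 7 were called, 2 higher and 4 lower in PAX6-TBR2- cells, beside 66.6% of all genes. With so many of all genes called, these counts say little about this family, and levels are given gene by gene.

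**Figure D1:**
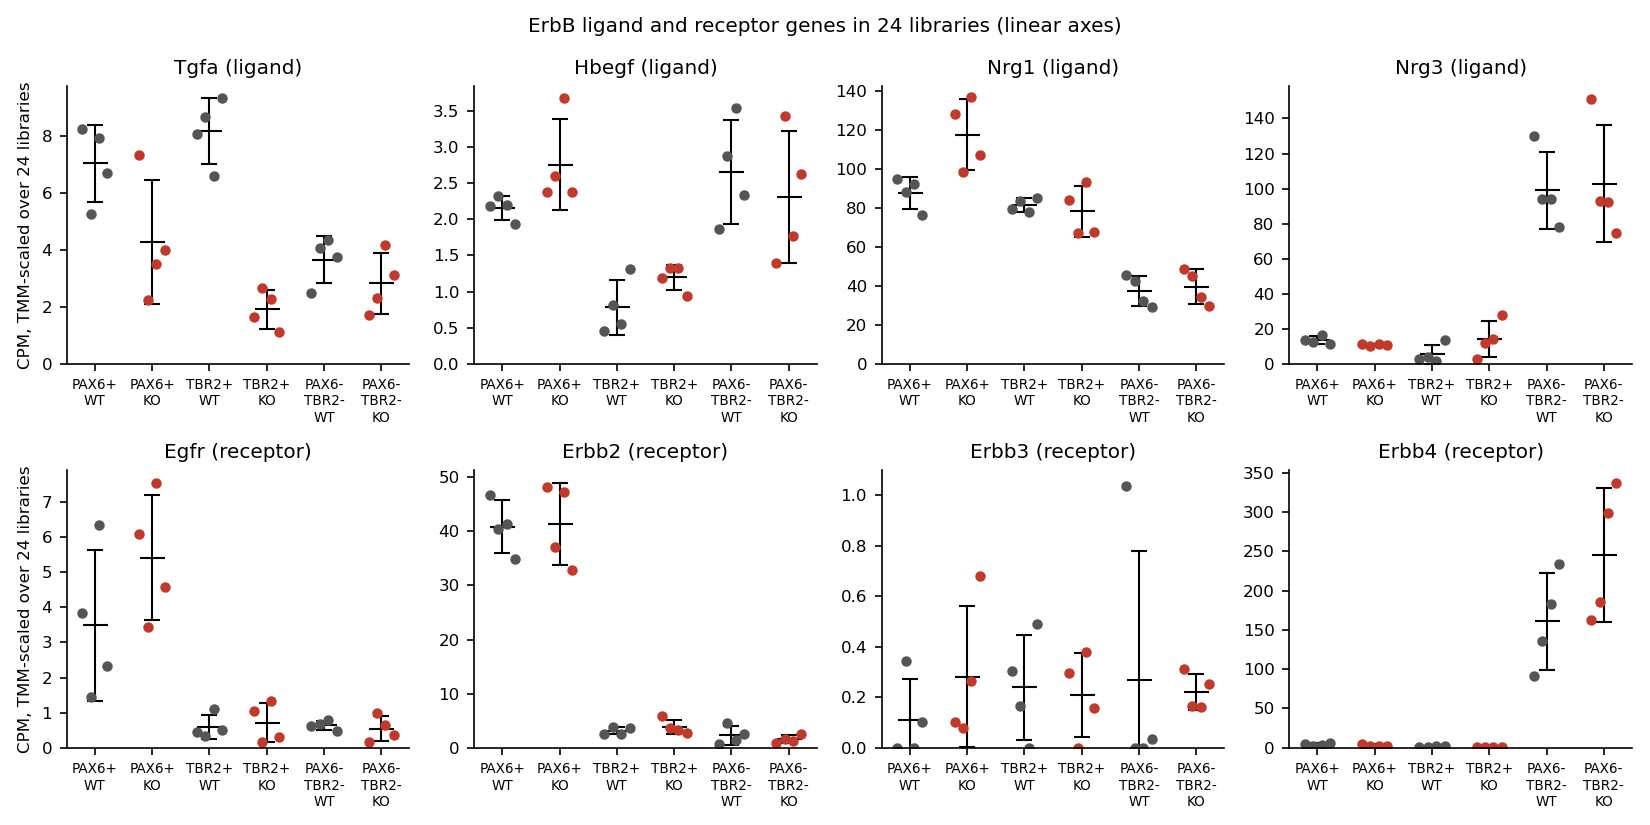
Each panel shows 1 gene, with CPM on a linear axis starting at 0 and the 6 groups along the bottom. Points are libraries in the order of their replicate numbers, grey for WT and red for KO, and bars give the mean and SD of 4 libraries. Erbb2 and Egfr stand above the rest in PAX6+ groups, Erbb4 and Nrg3 in PAX6-TBR2- groups, and Tgfa is lowest on average in KO TBR2+ cells.

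Erbb2, the receptor gene without a ligand, was at 46.8, 40.5, 41.4 and 34.8 CPM in the 4 WT PAX6+ libraries, against 2.57 to 3.75 CPM in WT TBR2+ and 0.621 to 4.56 CPM in WT PAX6-TBR2- cells. The PAX6+ libraries were far above the others, and the 2 low populations overlapped. Its log2 fold change was -3.69 (SE 0.17, edgeR adjusted p = 7.22e-12) from PAX6+ to TBR2+ cells and -0.40 (SE 0.41, adjusted p = 0.449) from TBR2+ to PAX6-TBR2- cells. Erbb2 shares its locus with Mien1 on the opposite strand, and the strand setting of the counting is not given in the sources used here. Mien1 ran the other way, from a mean of 4.94 CPM in WT PAX6+ to 10.4 CPM in WT TBR2+ and 13.1 CPM in WT PAX6-TBR2- cells.

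Egfr, the receptor gene for TGFA, was low everywhere and highest in radial glia, at 3.85, 1.43, 6.34 and 2.34 CPM in WT PAX6+ cells. No WT library of the other populations exceeded 1.10 CPM, so the WT groups did not overlap, although the 4 PAX6+ libraries differed among themselves more than for Erbb2. The fall from PAX6+ to TBR2+ cells was -2.56 on the log2 scale (SE 0.54, edgeR adjusted p = 0.00047). Between TBR2+ and PAX6-TBR2- cells Egfr did not pass the count filter.

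Erbb4, the neuregulin receptor gene of interneurons, was at 91.1, 136, 183 and 233 CPM in the WT PAX6-TBR2- libraries. In WT PAX6+ cells it was at 2.60 to 5.69 CPM and in WT TBR2+ cells at 0.607 to 2.13 CPM, so the 3 WT groups did not overlap. The rise was 5.32 on the log2 scale over PAX6+ cells (SE 0.30, edgeR adjusted p = 4.14e-10) and 6.89 over TBR2+ cells (SE 0.35, adjusted p = 1.5e-09). It was also 1.58 lower on the log2 scale in TBR2+ than in PAX6+ cells, as a log2 fold change of -1.58 (SE 0.38, adjusted p = 0.0016). The summed level of 13 interneuron markers, among them the GABA synthesis genes Gad1 and Gad2 and the Dlx and Lhx6 transcription factor genes, was 526 to 1350 CPM in WT PAX6-TBR2- cells against 93.3 to 137 CPM in WT PAX6+ and 75.0 to 102 CPM in WT TBR2+ cells. In bulk libraries a change in the number of cells of a type and a change in RNA per cell cannot be told apart.

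Erbb3, whose product is a neuregulin receptor with a weak kinase, was at or near the floor in all groups. Its group means were 0.111 to 0.281 CPM, and it did not pass the count filter in any comparison. The glial lineage in which Erbb3 is known was also little represented. Over the WT libraries 9 glial precursor and oligodendrocyte lineage markers summed to 2.95 to 17.7 CPM. For the neural crest lineage, where Erbb3 is also known, 5 Schwann and neural crest markers summed to 7.40 to 14.7 CPM in WT PAX6+ and TBR2+ libraries. They were higher in WT PAX6-TBR2- libraries, at 26.9 to 58.4 CPM, although Foxd3 was at 0 in every group.

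Nrg1, a secreted or membrane-bound neuregulin, was the most abundant ligand gene in both progenitor populations. It was at 94.96, 88.0, 92.1 and 76.3 CPM in WT PAX6+ and 79.3, 83.3, 77.9 and 85.3 CPM in WT TBR2+ libraries, and these groups overlapped. WT PAX6-TBR2- libraries were at 45.3, 42.6, 32.3 and 29.0 CPM, all below them. The log2 fold change from PAX6+ to TBR2+ cells was -0.10 (SE 0.10, 95% interval -0.29 to 0.10, edgeR adjusted p = 0.415), and from TBR2+ to PAX6-TBR2- cells -1.14 (SE 0.14, adjusted p = 6.21e-06).

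Nrg3, a neuregulin that binds ERBB4, had its highest levels in PAX6-TBR2- cells, at 130, 93.8, 94.2 and 78.0 CPM in WT. In WT PAX6+ cells it was at 13.5, 12.3, 16.6 and 11.2 CPM. The WT TBR2+ libraries were at 2.58, 4.08, 1.65 and 13.3 CPM, so 1 of the 4 reached the PAX6+ range and the others lay below it. The log2 fold change from PAX6+ to TBR2+ cells was -1.30 (SE 0.39, edgeR adjusted p = 0.0076) and was not called by DESeq2 (adjusted p = 0.0777). Without WT TBR2+ replicate 4 it was -2.23. The rise from TBR2+ to PAX6-TBR2- cells was 4.19 (SE 0.38, adjusted p = 2.81e-07), and 5.14 without the same library. Nrg3 shares its locus with Nrg3os on the opposite strand, and the same unknown strand setting applies. Nrg3os had means of 1.005, 0.244 and 4.33 CPM in WT PAX6+, TBR2+ and PAX6-TBR2- cells, the same order as Nrg3. Its part in the Nrg3 values was not tested.

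Hbegf and Tgfa encode ligands of EGFR. Hbegf (ENSMUSG00000024486; GRCm38 chromosome 18, 36504927 to 36515805, minus strand) was at 1.93 to 2.32 CPM in WT PAX6+, 0.455 to 1.31 CPM in WT TBR2+ and 1.86 to 3.54 CPM in WT PAX6-TBR2- cells. It was thus lowest in TBR2+ cells (log2 fold change -1.44 from PAX6+, SE 0.38, edgeR adjusted p = 0.0034), and PAX6+ and PAX6-TBR2- cells overlapped (0.30, SE 0.28, adjusted p = 0.349). Tgfa was at 8.22, 5.26, 7.91 and 6.70 CPM in WT PAX6+ and 8.04, 8.64, 6.60 and 9.33 CPM in WT TBR2+ libraries, which overlapped. WT PAX6-TBR2- libraries were lower, at 2.48, 4.06, 4.33 and 3.74 CPM, with a log2 fold change of -0.90 against PAX6+ cells (SE 0.23, adjusted p = 0.0028). By mean level the lowest WT population was PAX6-TBR2- for Tgfa and TBR2+ for Hbegf. For Tgfa this is a description only, since the WT TBR2+ libraries were the controls of the contrast that chose it.

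Levels of different genes can be compared only per length, and were divided here by the length of all annotated exons. On the scale of CPM per kb of exon, WT PAX6+ cells held most Nrg1 (8.49 ± 0.79) and Erbb2 (7.84 ± 0.94; SD, n = 4 each), with Tgfa at 1.08 ± 0.21 and its receptor gene Egfr at 0.308 ± 0.189. The order in WT TBR2+ cells was led by Nrg1 (7.87 ± 0.33), followed by Tgfa (1.26 ± 0.18), and every receptor gene was at or below a mean of 0.6. WT PAX6-TBR2- cells held most Nrg3 (14.5 ± 3.2) and Erbb4 (13 ± 4.96), which did not differ beyond their spread, and Egfr was at 0.0563 ± 0.0118. Nrg1, Nrg3 and Erbb4 each span more than 1 Mb of genome, mostly intron, and no correction for reads from unspliced transcripts was made.

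**Figure D2:**
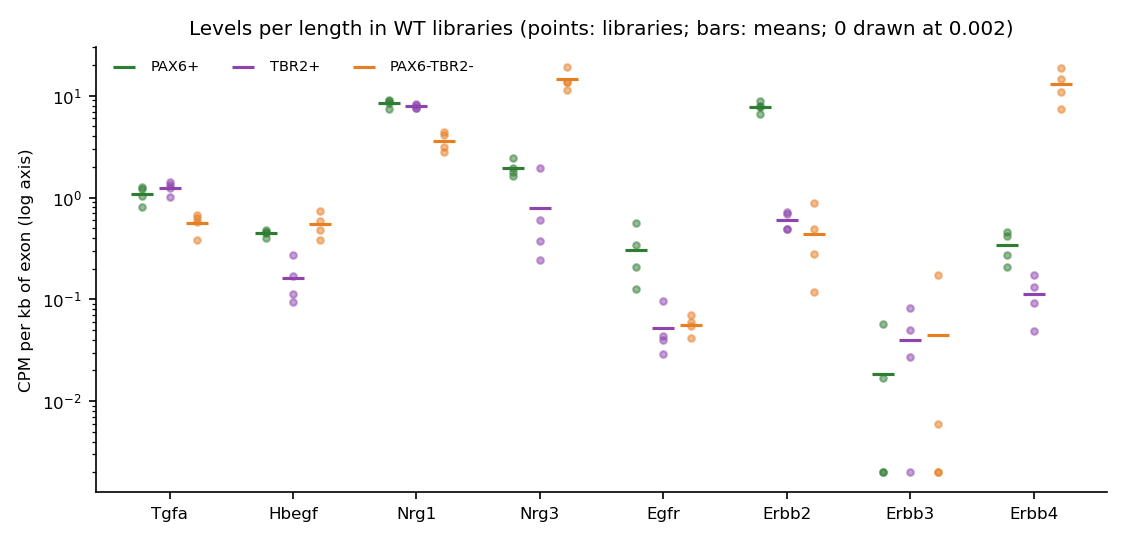
CPM per kb of exon on a log axis for the 8 genes in WT cells. Points are libraries and short bars are means of 4 libraries, coloured by population, and values of 0 are drawn at 0.002. Nrg1 and Erbb2 lead in PAX6+ cells, Nrg1 in TBR2+ cells and Nrg3 and Erbb4 in PAX6-TBR2- cells, with Erbb3 lowest in each.

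KO and WT were then compared within each population to ask whether loss of Prdm16 moved these genes. In PAX6+ radial glia, 7 of the 8 genes passed the count filter, all but Erbb3, and 0 of 7 were called by edgeR, beside 3.64% of all genes. DESeq2 called 1 of them, Nrg1, where the share of all genes by DESeq2 is not given here. In edgeR 2 of 7 had an unadjusted p under 0.05, Nrg1 and Tgfa, beside 1730 of all 14212 genes. With the replicate number as a block, used here since deviations of same-numbered libraries went together in this population, edgeR called Nrg1 as higher and Tgfa as lower, 2 of 7 beside 7.35% of all genes. WT and KO ranges did not overlap for 2 of 7, Nrg1 and Hbegf, beside 8.44% of all genes.

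Nrg1 in KO PAX6+ libraries was at 128, 98.2, 137 and 107 CPM, all above the highest WT library at 94.96 CPM. Its log2 fold change was 0.43 (SE 0.12, a 1.34-fold difference), with an edgeR adjusted p of 0.0602 without and 0.0021 with the replicate block. DESeq2 gave 0.42 (adjusted p = 0.0268). With 1 library left out it ran from 0.34 without KO replicate 3 (edgeR adjusted p = 0.204) to 0.51 without KO replicate 2 (adjusted p = 0.0358). It was called without KO replicate 2 or KO replicate 4 (0.47, adjusted p = 0.0329) and in none of the other 6 omissions.

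Tgfa in KO PAX6+ libraries was at 7.33, 2.22, 3.51 and 3.99 CPM. Replicate 1 lay within the WT range of 5.26 to 8.22 CPM and the other KO libraries lay below it, while each KO library was lower than the WT library of the same number. The log2 fold change was -0.73 (SE 0.30, edgeR adjusted p = 0.292), and -0.80 with the replicate block (adjusted p = 0.0365). With 1 library left out it ran from -1.11 without KO replicate 1 (adjusted p = 0.0355), the 1 omission that gave a call, to -0.51 without KO replicate 2 (adjusted p = 0.609).

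Egfr in KO PAX6+ libraries was at 6.09, 3.44, 7.54 and 4.59 CPM, against 3.85, 1.43, 6.34 and 2.34 CPM in WT. The ranges overlapped, though each KO library was above the WT library of its number. The log2 fold change was 0.62 (SE 0.37, 95% interval -0.11 to 1.35, edgeR adjusted p = 0.579), and ran from 0.36 without WT replicate 2 to 1.10 without WT replicate 3. Hbegf ran from 2.37 to 3.68 CPM in KO, just above the WT maximum of 2.32 CPM (log2 fold change 0.36, SE 0.29, adjusted p = 0.728). Erbb2 had a log2 fold change of 0.02 (SE 0.14, 95% interval -0.25 to 0.29, adjusted p = 0.985).

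Nrg3 in KO PAX6+ cells was at 10.2 to 11.5 CPM, overlapping WT (log2 fold change -0.30, SE 0.16, edgeR adjusted p = 0.514). Erbb4 was at 1.58 to 4.85 CPM (-0.54, SE 0.35, adjusted p = 0.615). Beside Erbb4, 1 of 6 tested interneuron markers was called in this comparison, Gad2, and it was lower in KO. Of the 6 markers, 1 had a log2 fold change above 0, and the values ran from -1.68 to 0.04 with a median of -0.54. Over all 13 markers the summed level ran from 93.3 to 137 CPM in WT libraries and from 99.8 to 123 CPM in KO ones, with Npy at 0 in WT and Sst at 0 in KO. Their part in the Erbb4 values was not tested.

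**Figure D3:**
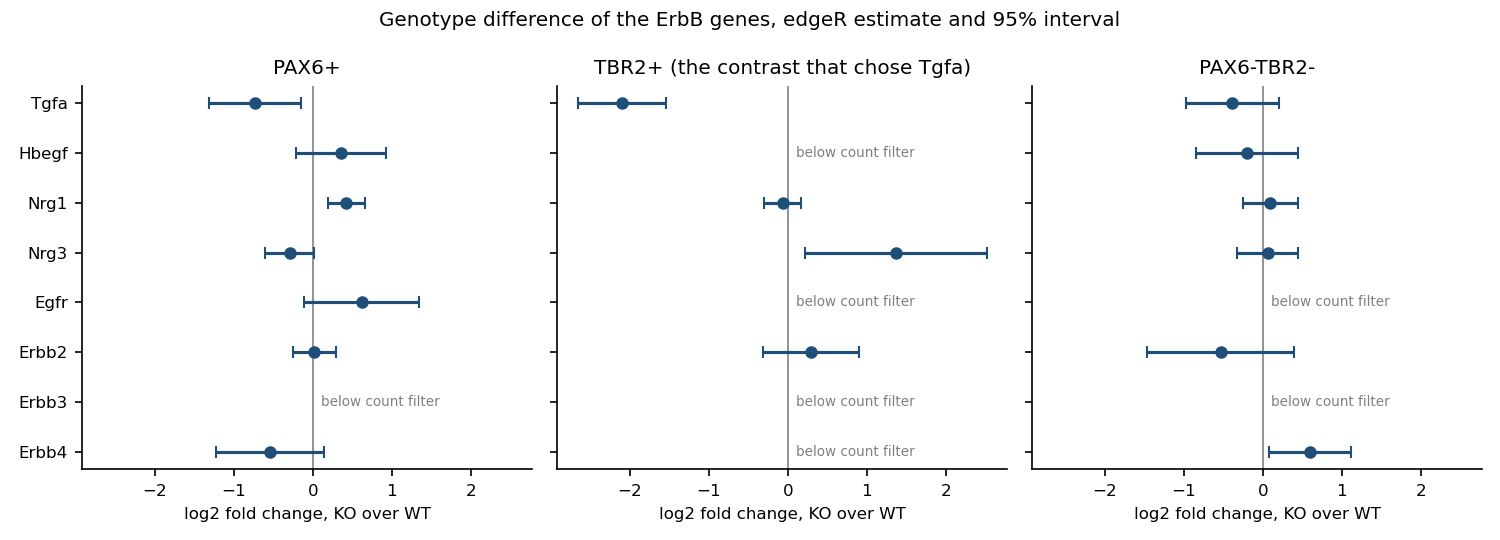
Log2 fold change of KO over WT for each gene (horizontal axis) in the 3 populations, as the edgeR estimate with bars for the 95% interval. Values in TBR2+ cells are descriptions, since that contrast chose Tgfa. Tgfa lies at -0.73, -2.10 and -0.39, Nrg3 is highest in TBR2+ cells at 1.37, and Erbb4 is at 0.60 in PAX6-TBR2- cells.

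In TBR2+ intermediate progenitors, 4 of the 8 genes passed the count filter, Tgfa, Nrg1, Nrg3 and Erbb2. Their values are descriptions. Ranges of WT and KO were apart for 1 of the 4, beside 6.77% of all genes. That 1 was Tgfa, which this contrast chose, so the count says nothing about the family. KO libraries held Tgfa at 1.64, 2.65, 2.27 and 1.10 CPM, against 8.04, 8.64, 6.60 and 9.33 CPM in WT. Every KO library was below every WT library, and the log2 fold change was -2.10 (SE 0.29, 4.28-fold lower). It ran from -2.30 to -1.90 when 1 library was left out, and was -1.97 with reads recovered from the deposited normalized tables.

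Nrg3 in KO TBR2+ libraries was at 2.83, 11.6, 14.2 and 27.8 CPM, against 2.58, 4.08, 1.65 and 13.3 CPM in WT. KO replicate 1 lay among the WT libraries, WT replicate 4 lay among the KO libraries, and the log2 fold change of 1.37 had an SE of 0.59. Without WT replicate 4 it was 2.31, and over all single omissions it ran from 0.79 to 2.31. The 8 neuron markers summed to 5443, 5580, 6326 and 6581 CPM in WT and 5125, 6538, 5778 and 7068 CPM in KO replicates 1 to 4, and the 5 Cajal-Retzius markers to 154, 500, 102 and 278 CPM in WT and 345, 512, 345 and 389 CPM in KO. In both genotypes replicate 4 had the highest Nrg3 and the highest neuron marker sum, but other libraries did not keep this order. WT replicate 3 had a higher neuron sum than WT replicates 1 and 2 but the lowest Nrg3. KO replicate 3 had a lower neuron sum than KO replicate 2 but more Nrg3. The part of these markers in the Nrg3 values was not tested.

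Nrg1 (log2 fold change -0.06, SE 0.12) and Erbb2 (0.30, SE 0.31) overlapped between genotypes in TBR2+ cells. The other receptor genes and Hbegf stayed at or under 2.13 CPM in both genotypes. Hbegf ran from 0.943 to 1.33 CPM in KO libraries and from 0.455 to 1.31 CPM in WT ones, Erbb4 at 0.943 to 1.49 and 0.607 to 2.13 CPM, and Egfr at 0.165 to 1.33 and 0.326 to 1.10 CPM.

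In PAX6-TBR2- cells 6 of the 8 genes passed the filter, all but Egfr and Erbb3, and 0 of 6 were called by edgeR or by DESeq2, beside 0.00774% of all genes by edgeR. By edgeR 1 of 6, Erbb4, had an unadjusted p under 0.05, beside 854 of all 12928 genes. WT and KO ranges overlapped for all 6, beside 4.16% of all genes whose ranges did not. Erbb4 in KO libraries was at 162, 185, 299 and 337 CPM, against 91.1, 136, 183 and 233 CPM in WT, a log2 fold change of 0.60 (SE 0.26, 95% interval 0.08 to 1.12, edgeR adjusted p = 0.734).

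The interneuron marker sum also varied between libraries, with Erbb4 lowest where it was lowest, at 526, 641, 1055 and 1350 CPM in WT and 695, 982, 1574 and 1512 CPM in KO replicates 1 to 4. All 13 markers had a log2 fold change above 0 in KO, from 0.12 to 0.61 with a median of 0.36, and 0 of 13 were called by edgeR or DESeq2 or had an unadjusted p under 0.05 in edgeR. The Erbb4 difference of 0.60 lay within this range, near its top and above the median. The part of these markers in the Erbb4 values was not tested. Per 100 CPM of summed markers, a ratio chosen after the values were seen, Erbb4 averaged 18.3 ± 1.9 CPM over WT libraries and 20.9 ± 2.3 CPM over KO libraries (SD, n = 4 each), with overlapping ranges of 17.3 to 21.2 and 18.9 to 23.3 CPM.

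**Figure D4:**
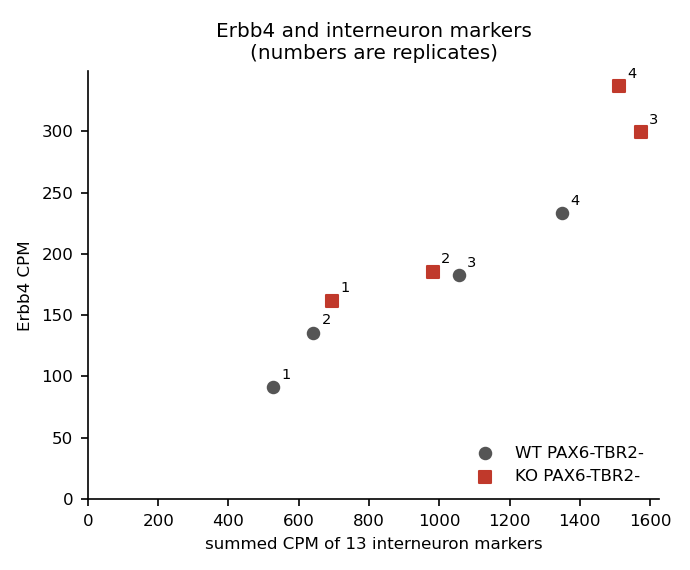
Erbb4 CPM (vertical axis) against the summed CPM of 13 interneuron markers (horizontal axis) in the 8 PAX6-TBR2- libraries, grey circles for WT and red squares for KO, numbered by replicate. Both axes start at 0. Erbb4 runs from 91.1 CPM at the lowest sum, 526 CPM, to 299 and 337 CPM at the highest sums, 1574 and 1512 CPM, and the order of the libraries is not the same on both axes throughout.

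The remaining genes of PAX6-TBR2- cells had small differences against their error. Tgfa was at 1.70, 2.29, 4.17 and 3.13 CPM in KO and overlapped WT (log2 fold change -0.39, SE 0.30, 95% interval -0.98 to 0.20, edgeR adjusted p = 0.85). Nrg1 (0.10, SE 0.18), Nrg3 (0.06, SE 0.20), Hbegf (-0.20, SE 0.33) and Erbb2 (-0.53, SE 0.47) had adjusted p-values of 0.867 to 0.965. Nrg1 and Nrg3 changed sign when single libraries were left out.

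Whether the genotype difference itself differed between populations was tested between PAX6-TBR2- and PAX6+ cells, in 1 edgeR fit with an interaction term. Of 7 tested genes 0 were called by edgeR or by DESeq2, beside 0.775% of all genes by edgeR. By each method 1 of 7, Erbb4, had an unadjusted p under 0.05, beside 1067 of all 15102 genes by edgeR. The Erbb4 difference of log2 fold changes was 1.13 (SE 0.48, edgeR adjusted p = 0.584). Differences that involve TBR2+ cells are given without a test: the Tgfa log2 fold change was lower by 1.37 than in PAX6+ cells, as a difference of -1.37 (SE 0.44), and the difference from PAX6-TBR2- cells was -1.71 (SE 0.42). For Nrg3 the corresponding differences were 1.67 (SE 0.64) and 1.31 (SE 0.65). Without WT TBR2+ replicate 4 they were 2.61 and 2.26. The Tgfa estimates were below 0 in all 3 populations, where TBR2+ cells gave the contrast that chose it. In the others Tgfa was not called by edgeR with all libraries and no replicate block. Its 95% interval, not adjusted for the number of genes, was -1.315 to -0.153 in PAX6+ cells and included 0 in PAX6-TBR2- cells.

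Other genes of the pathway were taken as 5 lists with 81 genes in all: other ErbB ligands, proteins that shed or process ligands, adaptors and kinases of the Ras, MAP kinase and PI3 kinase pathways, negative regulators, and transcription factors that respond to ERK. The lists were chosen with earlier results of these data known, so their counts beside all genes are descriptions. In PAX6+ cells 5 of 72 tested genes were called, beside 3.64% of all genes, 4 higher and 1 lower in KO. The median log2 fold change of the 72 was 0.09 beside 0.002 for all genes. With the replicate block 10 of 72 were called, beside 7.35% of all genes, 8 higher and 2 lower. Fosl2, an AP-1 transcription factor gene, rose from 8.92 ± 1.84 to 29.5 ± 5.4 CPM (SD, n = 4 each; edgeR adjusted p = 1.66e-05). Lrig1, which encodes a membrane protein that lowers ErbB receptor levels, rose from 34.5 ± 2.6 to 59.4 ± 11.6 CPM (adjusted p = 0.0025).

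Of the 13 tested genes for shedding and processing, 2 rose and 1 fell in KO PAX6+ cells. Nkd2, whose product escorts TGFA to the cell surface, rose by 1.59 on the log2 scale (SE 0.18, edgeR adjusted p = 4.74e-05), from 5.51 ± 0.83 to 16.5 ± 2.7 CPM (SD, n = 4 each). Rhbdf1, which encodes an inactive rhomboid that regulates ligand shedding, rose by 0.82 (SE 0.22, adjusted p = 0.0468), with overlapping ranges. Rhbdl3, a rhomboid protease family gene, changed by -0.44 (SE 0.10, adjusted p = 0.0159).

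In TBR2+ cells, where 1.76% of all genes were called, 1 of 68 pathway genes was, Fosl2, which rose from 14.8 ± 6.1 to 79.3 ± 10.97 CPM (SD, n = 4 each), a rise of 2.42 on the log2 scale (SE 0.20, edgeR adjusted p = 1.34e-05). DESeq2 called 2 of 72, Fosl2 and Rhbdl3. In PAX6-TBR2- cells 0 of 69 were called by edgeR and 0 of 74 by DESeq2. There 3 of 69 had an unadjusted p under 0.05 in edgeR, beside 854 of all 12928 genes. The other ErbB ligands were scarce in every group: Areg, Ereg and Btc, which encode ligands of EGFR, had at most 5 reads over the 4 libraries of any group, while Egf and Nrg4 were at means of 2.30 to 3.31 and 2.46 to 4.43 CPM.

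The same lists were counted between WT populations. From PAX6+ to TBR2+ cells 52 of 72 were called, 28 higher and 24 lower, beside 63.2% of all genes. From TBR2+ to PAX6-TBR2- cells 43 of 71 were called, beside 49%, and between PAX6+ and PAX6-TBR2- cells 56 of 74, beside 66.6%. From PAX6+ to TBR2+ cells, 7 of 19 tested negative regulators were called as higher and 8 as lower. Of 12 tested ERK-responsive factor genes, 3 were called as higher and 5 as lower. Among the genes that fell were the ETS factor genes Etv5 (63.5 ± 17.5 to 5.599 ± 1.678 CPM) and Etv1 (23.7 ± 3.5 to 2.30 ± 1.05 CPM; SD, n = 4 each) and the feedback inhibitor gene Spry2 (16.01 ± 4.18 to 3.85 ± 1.04 CPM). Dusp4, a MAP kinase phosphatase gene, rose from 9.56 ± 1.67 to 221 ± 46 CPM. In PAX6-TBR2- cells the protease gene Adam19, whose product can cleave neuregulins, was at 109 ± 8 CPM, against 8.35 ± 0.53 CPM in PAX6+ cells.

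Because Tgfa lies near the Cre allele, which only KO libraries carry, the surrounding genes were examined. Cre and any chromosome 6 sequence linked to it cannot be told apart from the loss of Prdm16 in this design. Emx1 itself was lower in KO by log2 fold changes of -0.36, -0.23 and -0.60 in PAX6+, TBR2+ and PAX6-TBR2- cells, none of them called (edgeR adjusted p = 0.409, 0.381 and 0.529), with ranges that did not overlap in PAX6-TBR2- cells. Genes within 5 Mb of Emx1 were counted, leaving out Emx1 and Tgfa. In TBR2+ cells 0 of 79 tested genes were called by edgeR, beside 1.76% of all genes, and 0 of 93 by DESeq2. Of the 79, 2 had an unadjusted p under 0.05 in edgeR, beside 1566 of all 12687 genes. The log2 fold changes of the 79 ran from -0.71 to 1.03. In PAX6-TBR2- cells 0 of 79 were called by edgeR, beside 0.00774% of all genes, and 0 of 85 by DESeq2. There 8 of 79 had an unadjusted p under 0.05 in edgeR, beside 854 of all 12928 genes.

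In PAX6+ cells 2 of 91 such genes were called by edgeR, both higher in KO, beside 3.64% of all genes. Cyp26b1, which encodes an enzyme that breaks down retinoic acid, lies 0.594 Mb from Emx1 on the side away from Tgfa and rose from 0.345 ± 0.223 to 15.1 ± 3.0 CPM (SD, n = 4 each; edgeR adjusted p = 5.3e-08). Tacr1, a tachykinin receptor gene, lies 2.63 Mb from Emx1 and rose from 1.84 ± 0.52 to 5.53 ± 1.77 CPM (adjusted p = 0.0057). The nearest tested neighbours of Tgfa in TBR2+ cells, Add2 on one side (log2 fold change 0.21, SE 0.13, adjusted p = 0.587) and Fam136a on the other (0.29, SE 0.26, adjusted p = 0.742), were not called. The part of the Cre allele in the Tgfa values was not tested.

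**Figure D5:**
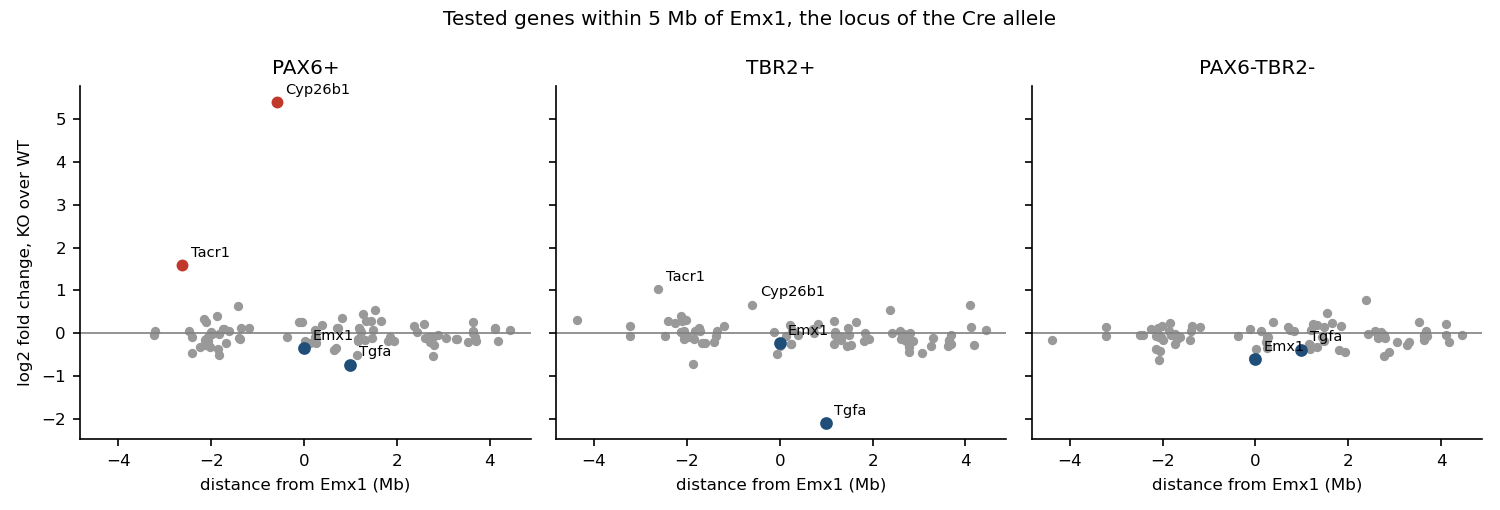
Log2 fold change of KO over WT (vertical axis) against distance from Emx1 in Mb (horizontal axis) for the tested genes within 5 Mb, by population. Blue points are Emx1 and Tgfa, red points are other genes called by edgeR, and grey points are the rest. Tgfa lies at -2.10 in TBR2+ cells, the contrast that chose it, and the lowest of the 79 other genes lies at -0.71. The called genes Cyp26b1 and Tacr1 lie above 0 in PAX6+ cells.

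For each gene the 3 genes most like it were named by Pearson's r of log2 CPM over the 24 libraries, as a description, since libraries share population and handling. Erbb4 was most like the noncoding gene Gm14204 (0.99), the transcription factor gene Maf (0.981) and the GABA synthesis gene Gad2 (0.981). Egfr was most like the ETS factor gene Etv4 (0.962), Itpr2 and Pld1, and Erbb2 most like Etl4 (0.984), Cdon and the intermediate filament gene Vim. Nrg1 was most like the phosphatase genes Ptpru (0.945) and Ptpn13 (0.944) and the factor gene Eya1, Nrg3 most like Fbn2 (0.979), Dok6 and Cnnm1, and Hbegf most like Adamts1 (0.915), Stx2 and Asap1. Tgfa had the weakest matches, the receptor tyrosine kinase gene Alk (0.787), the transketolase gene Tkt (0.778) and Smoc1 (0.748). The 24 libraries include the TBR2+ ones whose contrast chose Tgfa, and it had only 7 to 126 reads per library. Erbb3 was not compared, since it did not pass the count filter over the 6 groups.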

How the data were processed

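RNA of the sorted cells was turned into cDNA and amplified isothermally from a single primer, per the labels' protocols, which describe no molecular identifiers. Build mm10 and the tools FastQC, cutadapt, STAR, featureCounts and DESeq2 are listed in the submitters' processing notes. Versions, annotation release and strand setting were not given in the sources used here. Raw counts of each Ensembl gene in 2 lanes per library were deposited by the authors, and lanes were summed. The deposited normalized signal tables hold values that are whole multiples of what 1 read is worth, and the recovered reads, 1.44 to 1.7 times the raw counts in TBR2+ and PAX6-TBR2- groups, served as an alternative.

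Symbols and positions came from GENCODE M21. Groups and replicate numbers came from the sample titles. KO and WT, and WT populations, were compared by the quasi-likelihood F test of edgeR 4.0.16 under R 4.3.3 (two-sided, after filterByExpr and TMM scaling), fitted on the libraries compared and adjusted over all genes tested by Benjamini-Hochberg. The SE is the log2 fold change divided by the square root of F, and 95% intervals assume a normal estimate. The fits were tested on simulated data. Lanes of a library differed by sampling noise only (chi-square per degree of freedom 0.976 to 1.02) and libraries of a group by more (5.65 to 45.5). In PAX6+ cells the deviations of same-numbered WT and KO libraries correlated at 0.159 to 0.361, all above 0.1, so the numbers were taken to pair these libraries. Alternatives were DESeq2 1.42.0, RLE factors, no filter, recovered reads, 1 fit of all libraries, a replicate block and single omissions.

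The 8 genes, the pathway and marker lists and the tests were chosen with earlier results of these data known. Named genes were the 8, Prdm16 and Emx1, up to 4 called genes per pathway list and comparison by size of change, up to 5 called genes within 5 Mb of Emx1, and the 3 genes most like each of the 8. Neighbours of Tgfa, marker genes, Mien1, Nrg3os, and pathway genes given only as levels or in a DESeq2 count were named outside that rule, after their values were seen. No protein sequence was used here.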

Additional observations from a re-analysis of the deposited data

Results flagged for a closer look

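Erbb3 in WT PAX6-TBR2- cells stood out in replicate 1, at 1.04 CPM, far from the other 3 libraries of its group. It was the only flag among 48 combinations of gene and group checked for 1 distant library, and chance flags about 1 in 20. The gene is below the count filter in every comparison.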

How the results depend on the processing

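In PAX6+ cells, 0 of the 8 genes called became 1 with DESeq2, 1 without the count filter, 2 with the replicate block, and 0 to 1 with 1 library left out. Genes called in all went from 517 to 1045 with the block (609 higher, 436 lower). In TBR2+ cells, 223 became 357 with DESeq2, 728 without the filter, 720 with the replicate block, and 121 (without WT replicate 3) to 420 (without KO replicate 1) with 1 library left out. In PAX6-TBR2- cells, 1 became 6 in 1 fit of all 24 libraries, 24 with DESeq2, 38 without the filter, 153 with the replicate block and 1 to 3 (without KO replicate 4) with 1 library left out. For the interaction of PAX6-TBR2- and PAX6+, 117 became 219 without the filter and 332 with the block.

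Deviations of same-numbered libraries correlated at 0.046 to 0.408 for TBR2+ cells, and at 0.082 to 0.365 for PAX6-TBR2- cells, so their numbers were not taken as a pairing, and 6 and 7 of 8 libraries correlated best with their own number, a hint from the data only. With the replicate block, Erbb4 in PAX6-TBR2- cells was the 1 gene of the 8 called (log2 fold change 0.62, edgeR adjusted p = 0.0001), as were 6 of 13 interneuron markers. Over its other alternatives and single omissions Erbb4 was not called. The Erbb4 interaction was the 1 called with the block (1.18, adjusted p = 0.00295) and the 1 called without the filter (1.09, adjusted p = 0.0292). The block changed no call among the 8 genes beyond these and those given for PAX6+ cells.

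With 1 library left out, the sign changed for Erbb2 in PAX6+ cells (-0.0551 to 0.114) and for Nrg1 (-0.0234 to 0.216) and Nrg3 (-0.187 to 0.217) in PAX6-TBR2- cells. By Spearman's rho 9 of the 21 genes most like one of the 8 were named again. Without Emx1 and Tgfa, called genes in PAX6+ cells were 1 of 47 within 2 Mb of Emx1 and 5 of 123 within 10 Mb. The share of all genes was 3.64%. In TBR2+ cells 2 of 105 were called within 10 Mb, beside 1.76% of all genes. The cause was not tested for any of these. Low counts limit Egfr, Erbb3, Erbb4 and Hbegf in TBR2+ cells, where estimates without the filter ran from -0.26 (Erbb4, SE 0.52) to 0.58 (Hbegf, SE 0.57), with an SE of 1.03 for Erbb3.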
